A study of Mus musculus with 2 samples.

Results

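CTCF binding was followed at 5 imprinted mouse genes, Rasgrf1, Plagl1, Peg10, Sgce and Inpp5f, in embryonic liver. A peak belonged to a gene when its summit lay inside the gene or within 50 kb of either end, on build mm10 with the GENCODE vM21 annotation. Peg10 and Sgce lie next to each other and were read as 1 locus, which gave 4 loci. Of the 50909 peaks in the optimal list, the larger of the thresholded peak sets the authors deposited, 18 lay at these loci. Binding was mapped by chromatin immunoprecipitation with sequencing (ChIP-seq) with an antibody against CTCF. The liver came from B6NCrl mice at embryonic day 14.5, and tissue of several dissections and of both sexes was pulverised and pooled. The 2 libraries, replicates 1 and 2, come from the same biosample, so the spread between them covers library making and sequencing rather than animals. There is no second condition, and the strain is inbred, so the maternal and paternal copies of a locus cannot be told apart. RNA was not measured.

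An imprinted gene is expressed mainly from the copy inherited from 1 parent, and the choice is set by DNA methylation laid down in the egg or the sperm at a control region. CTCF is a zinc finger protein that holds chromatin loops and blocks enhancers from reaching promoters, and methylation inside its site can weaken its binding. Rasgrf1, an exchange factor that activates Ras, is paternally expressed in brain, and its control region lies upstream of the gene, with a CTCF-binding element next to a tandem repeat. Plagl1, a zinc finger transcription factor that slows growth, is paternally expressed from a promoter that is methylated on the maternal copy. Peg10, a gene derived from a retrotransposon and needed for the placenta, and Sgce, which encodes epsilon-sarcoglycan, are paternally expressed from divergent starts in a shared methylated region. Inpp5f encodes a phosphoinositide phosphatase, and a short transcript that starts inside an intron of the gene is imprinted in brain.

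No source used here states how many reads each library had. The deposited files hold 300000 candidate peaks for each replicate and for both replicates pooled, and 50909 optimal and 49129 conservative peaks after thresholding by the irreproducible discovery rate (IDR). The deposited signal of a peak is on a scale that is not stated, so it was compared only within a list. To set the libraries side by side, each replicate's peak nearest to an optimal summit, at most 100 bp away, was scaled so that the median of the 50909 strongest peaks of the library is 1. This scaled value is called the relative signal.

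The loci differed in where CTCF sat. At Peg10-Sgce a peak lay at the shared promoter. At Plagl1 the peak with the highest signal in the optimal list lay 3.29 kb upstream of the main group of starts, although replicate 1 placed a peak 41.8 kb upstream of the gene above it. At Inpp5f the strongest peaks lay in the last part of the gene and beyond it. At Rasgrf1 neither the promoter nor the upstream control region held an optimal peak. The peak with the highest optimal-list signal at each locus, called the strongest here, had a mean relative signal of 7.24 ± 1.85 at Inpp5f, 2.92 ± 0.595 at Plagl1, 1.73 ± 0.899 at Peg10-Sgce and 1.705 ± 0.316 at Rasgrf1 (SD, n = 2 each). For these peaks, in both replicates Inpp5f stood above Plagl1 and Plagl1 above the other loci, whereas the replicates of Peg10-Sgce and Rasgrf1 overlapped. Each was picked as the highest of its locus by signal from these same libraries, so the replicates are no independent support for the order. The pick was among 7 peaks at Inpp5f, 5 at Plagl1, 4 at Rasgrf1 and 2 at Peg10-Sgce. What these unequal numbers do to the order was not tested. With 2 libraries from the same tissue no test of this order was run.

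**Figure D1:**
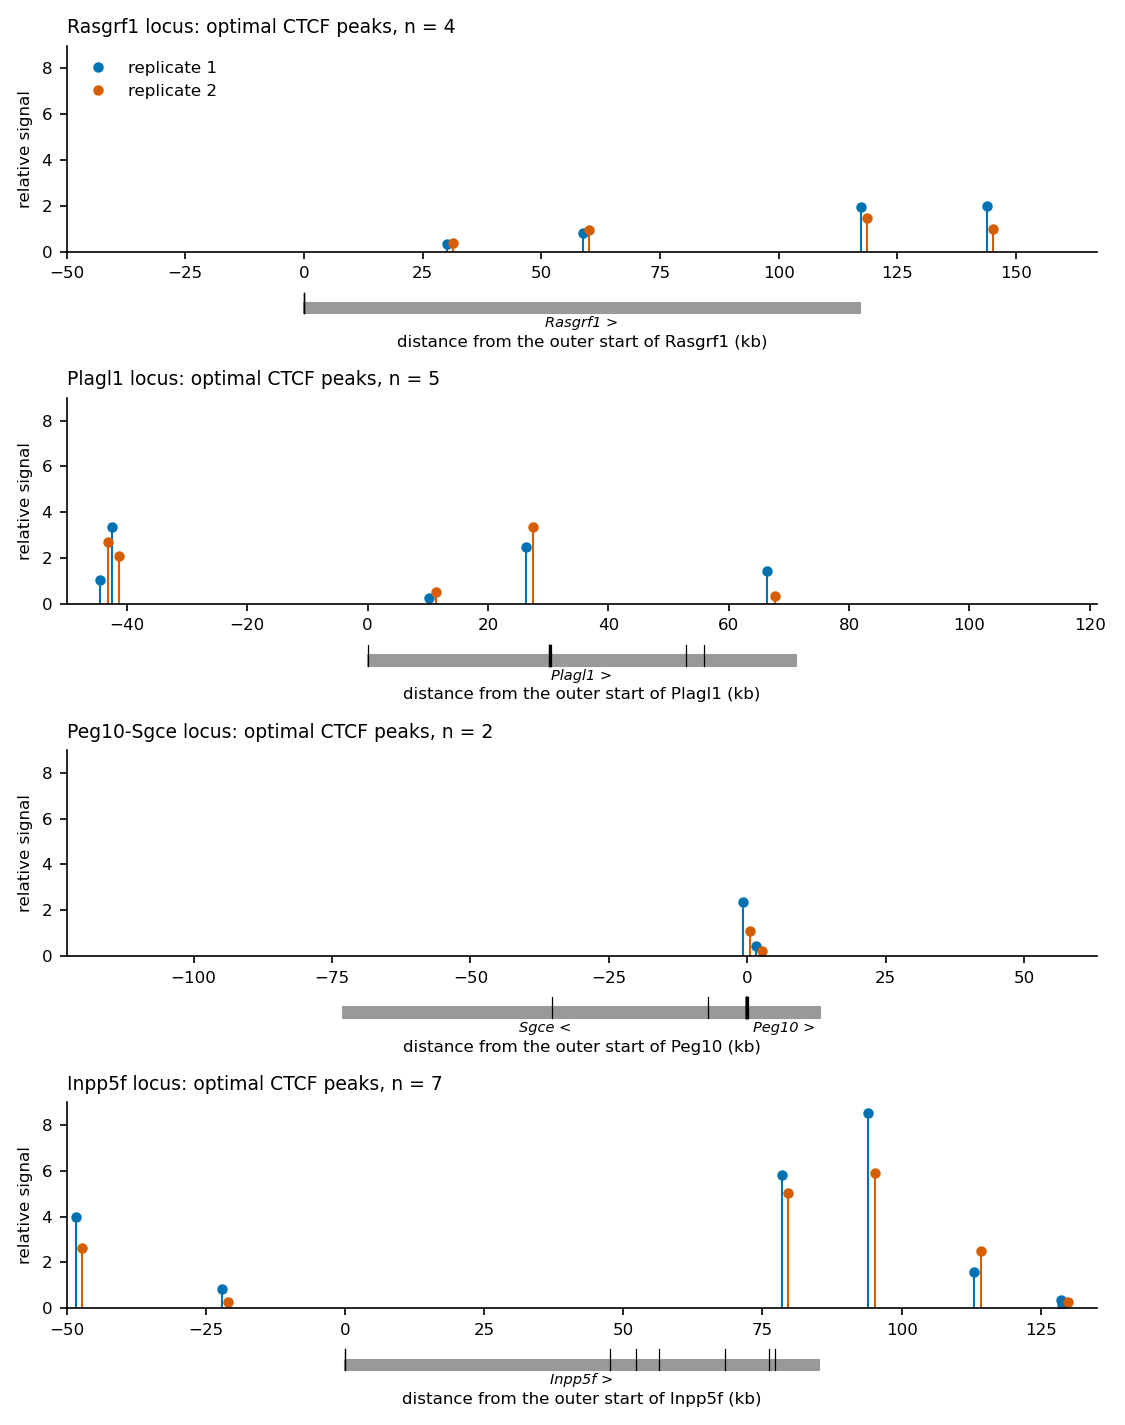
Relative signal of the optimal CTCF peaks at each locus (y axis, 1 is the median of a replicate's strongest peaks) against distance in kb from the outer start of the named gene, with replicate 1 drawn 0.6 kb to the left and replicate 2 drawn 0.6 kb to the right of the summit. Grey bars are the genes, arrowheads give the direction of transcription and black ticks are annotated starts; the 2 tallest peaks, up to 8.55, lie at the 3' end of Inpp5f and beyond it, and the 50 kb upstream of Rasgrf1 holds none.

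The Rasgrf1 window, on chromosome 9 from 89859908 to 90076977, held 4 optimal peaks, or 18.4 per Mb. The strongest 50909 peaks of each replicate placed 3 there in replicate 1 and 4 in replicate 2. None lay upstream of the gene. The nearest optimal peak upstream was 82.7 kb before the start, outside the window, and from it to the first peak inside the gene ran 113.4 kb without an optimal summit. The strongest peak lay just past the 3' end, with a summit at 90027917, a signal of 114 and relative signals of 1.93 in replicate 1 and 1.48 in replicate 2. Both replicates placed it above their median strong peak. Its best match to the core CTCF motif, a stretch of 14 bases searched on both strands with the whole match within 50 bp of the summit and at most 2 mismatches allowed, had 1 mismatch. It is shown with the match in capitals, read on the strand of the motif, beside the site of the first intronic peak.

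Rasgrf1 3' end, chr9:90027898-90027927, minus strand: agttacctCCTCCAGGGGGCAGtgctcagg
Rasgrf1 intron, chr9:89940619-89940648, plus strand: ccatttcaCCAGCAGGGGGCCCtactgaca

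Inside Rasgrf1 there were 2 weaker optimal peaks. In intron 2 of transcript Rasgrf1-202, which has 27 exons, a peak 30.7 kb after the start had relative signals of 0.318 and 0.368 in replicates 1 and 2 and ranked 43334 in the optimal list. In intron 6 a peak 59.3 kb after the start had 0.823 and 0.952. The relative signals of the replicates differed little at both peaks, and both peaks stayed under the median strong peak. Replicate 1 did not count the intron 2 peak among its strongest peaks, ranking it 52707, whereas replicate 2 did, at rank 42779. The intron 6 peak had no match, its best stretch holding 4 mismatches. A further peak inside the gene, with its summit at 89917633, was in the conservative list only, with a signal of 15.7 and rank 47422 of 49129. Replicate 2 gave it a relative signal of 0.242, and replicate 1 had no candidate within 100 bp. The remaining optimal peak of the window belonged to a neighbour, in the first exon of Ctsh, which encodes the lysosomal protease cathepsin H, with relative signals of 1.98 and 0.961. In replicate 1 it was slightly above the peak at the 3' end of Rasgrf1, and in replicate 2 below it. An optimal peak with a signal of 312 lay 50.1 kb beyond the gene end, just outside the window, and was stronger than each of the 4 inside it.

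At the Rasgrf1 start and in the stretch 20 to 40 kb upstream of it, where the control region is known to lie, only candidates below the IDR threshold were found. In that stretch the optimal and conservative lists held 0 peaks, while the full candidate lists held 4 in the pooled list, 5 in replicate 1 and 1 in replicate 2. The best of them had its summit 30.1 kb upstream of the start, with a signal of 9.20 and rank 98164 of 300000 in the pooled list. It ranked 62556 in replicate 1, with a relative signal of 0.267, and replicate 2 had no candidate within 100 bp. Among the libraries it was therefore listed in replicate 1 only. Its sequence is shown because it is the strongest candidate of the region, beside a unit of the tandem repeat found there. The capitals mark the best stretch for the core motif, which has 4 mismatches and is no match.

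Rasgrf1 upstream candidate, chr9:89879764-89879864, minus strand: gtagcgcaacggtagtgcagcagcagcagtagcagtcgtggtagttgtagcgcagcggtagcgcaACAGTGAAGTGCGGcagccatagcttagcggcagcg
Rasgrf1 repeat unit, chr9:89880944-89880983, plus strand: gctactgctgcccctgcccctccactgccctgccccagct

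The repeat was found by comparing the reference sequence with itself. At a shift of 40 bp, 89.2% of letters in the best block of 400 bases were identical, against a median of 44.2% over shifts of 15 to 120 bp. The array ran from 89880350 to 89881454, or 1105 bp, and began 536 bp from the candidate's summit. The next 40 bases after the unit shown were identical to it in 40 of 40 positions. The candidate's 101 bases held 9 CpG dinucleotides, against a median of 2 around all optimal summits. A second weak candidate, 28.3 kb upstream with its summit at 89881631, lay closer to the array, just past its other end, and was listed in the pooled list at rank 205415 and in replicate 2 at rank 230800. The whole stretch of 20 kb held 2 core motif matches, against a median of 5 (quartiles 3 and 8) in the same stretch upstream of all 21938 protein-coding genes. The match at 89881543 to 89881556, with 2 mismatches, lay just past the end of the array and inside the second weak candidate. It was farther from that candidate's summit than the limit set for the match of a peak. The other, at 89885723 to 89885736 with 2 mismatches, overlapped the edge of a candidate of replicate 1 with rank 213085. A match is a description of letters. How reads from repeat copies were placed was not tested. At the Rasgrf1 start itself, a pooled candidate 135 bp downstream had a signal of 7.75 and rank 131136. The nearest candidate of replicate 1 ranked 114858, and the nearest of replicate 2 lay 7725 bp downstream, in the gene.

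**Figure D2:**
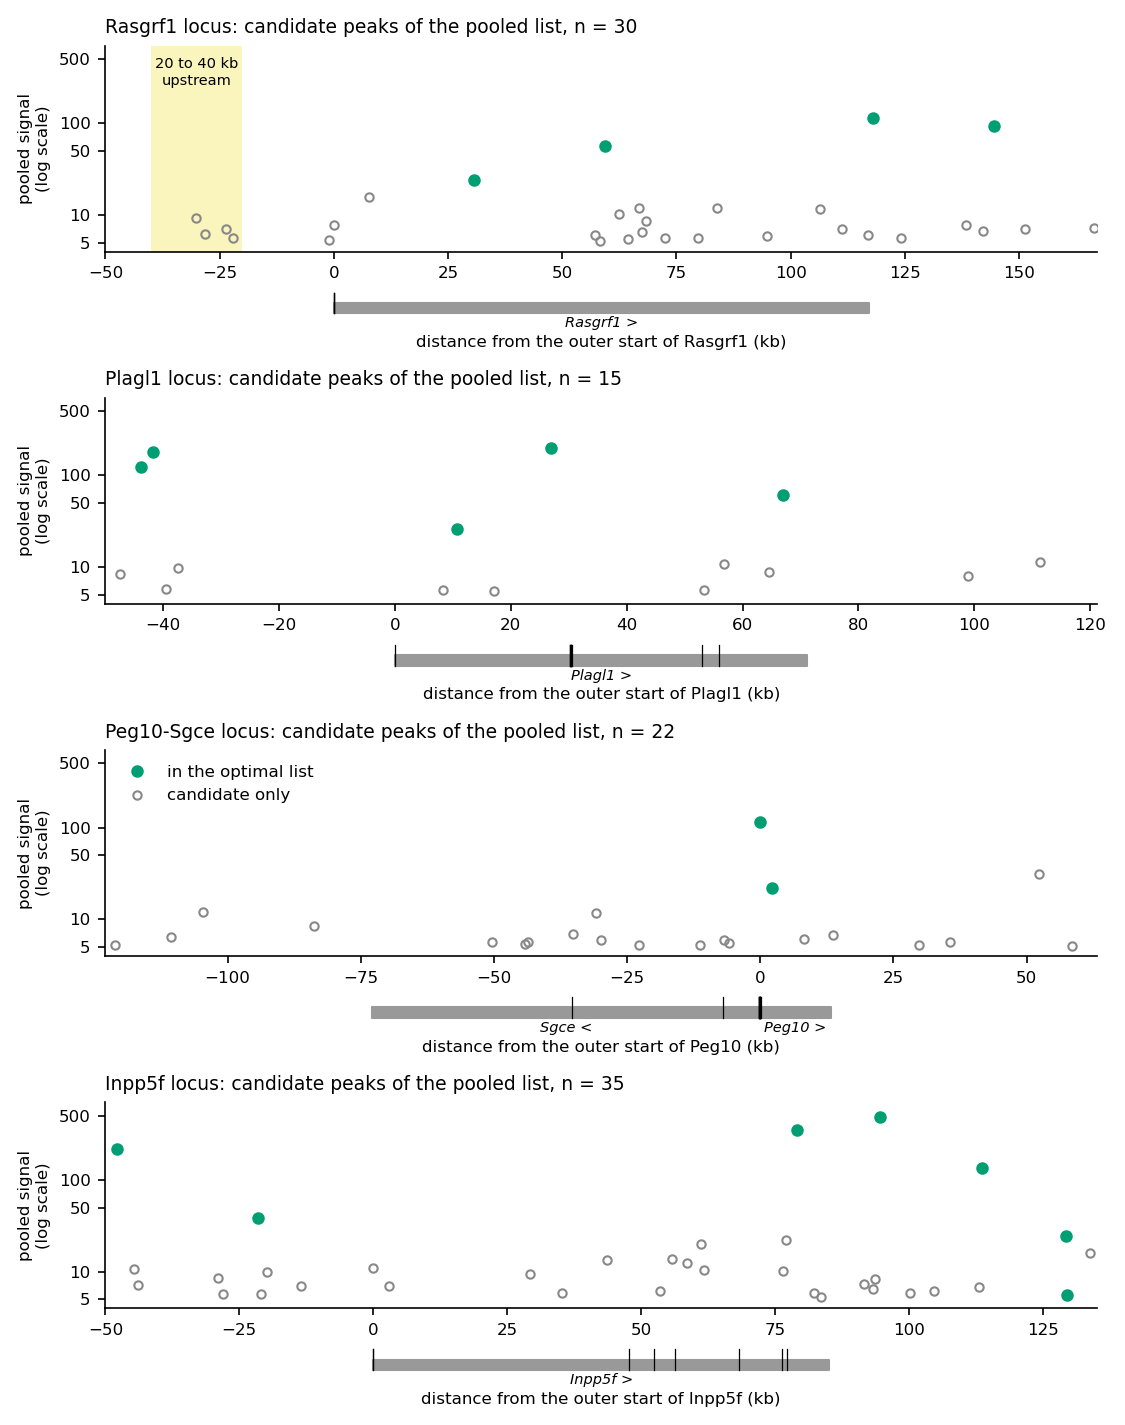
Signal of every candidate peak of the pooled list (y axis, log scale, the authors' own units) against distance in kb from the outer start of the named gene. Filled green points are in the optimal list and open grey points are not; the yellow band marks 20 to 40 kb upstream of Rasgrf1, where all 4 candidates are open and the highest reaches 9.20.

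The Plagl1 window, on chromosome 10 from 13010504 to 13181694, held 5 optimal peaks, or 29.2 per Mb, with 4 among the strongest peaks of replicate 1 and 5 among those of replicate 2. All 5 had a core motif match with 1 mismatch. GENCODE starts a single long transcript at 13060504 and most others between 13090691 and 13091013, the promoter known to be methylated on the maternal copy. The strongest peak, with a summit at 13087404, lay 3.29 kb before the first of these starts, within the span of the long transcript. Its signal was 197, rank 10254 in the optimal list, with relative signals of 2.50 in replicate 1 and 3.34 in replicate 2. Both replicates placed it at more than 2 times their median strong peak, and it was the highest of the locus in replicate 2 but not in replicate 1. Around the main starts themselves, no peak of any deposited list, the full candidate lists included, was nearer than this peak.

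A pair of peaks 1945 bp apart lay upstream of the whole gene, 43.8 and 41.8 kb before the start of the long transcript. The farther had relative signals of 1.03 and 2.70 in replicates 1 and 2, and the nearer 3.36 and 2.10. The replicates therefore put the 2 peaks in opposite orders, and in replicate 1 the nearer was the highest of the locus. A weak peak 10.7 kb after the start of the long transcript had 0.235 and 0.533. It was outside the conservative list, and soft-masked repeat letters made up 82.2% of its 101 bases. The last peak lay in exon 6, the final exon of transcript Plagl1-202, in coding sequence, with 1.44 and 0.355. Replicate 1 put it above its median strong peak and replicate 2 well below. The motif of this exonic peak lay on the minus strand and those of the other 4 on the plus strand, so the exonic site faces the other 4. The strongest site and the exonic site are shown to compare these orientations, with the match in capitals, read along the motif.

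Plagl1 upstream of the main starts, chr10:13087354-13087454, plus strand: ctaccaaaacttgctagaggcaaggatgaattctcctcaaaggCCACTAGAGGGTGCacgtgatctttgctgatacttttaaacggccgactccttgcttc
Plagl1 last exon, chr10:13127497-13127526, minus strand: tgtgtggaCCACCAGGTGGCGAcgcacatc

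The gap beyond the last Plagl1 peak was the longest next to any of the 4 loci. The next optimal peak downstream was 302.4 kb away, and upstream of the pair the next was 8.11 kb away, 51.9 kb before the gene and just outside the window, with a signal of 17.0. The match of the strongest peak was centred 0 bp from the summit, and those of the other 4 peaks 4 to 7 bp from it.

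The Peg10-Sgce window, on chromosome 6 from 4624350 to 4810517, held 2 optimal peaks, or 10.7 per Mb, with 3 and 2 among the strongest peaks of replicates 1 and 2. They lay 2.24 kb apart, at the divergent promoter and just inside Peg10, and the rest of the 72.9 kb Sgce gene held none. The stronger peak had its summit at 4747182, in the 5' UTR of Sgce, 25 bp after the outermost Sgce start and 124 bp before the outermost Peg10 start. Its signal was 116, rank 17526, with relative signals of 2.37 in replicate 1 and 1.09 in replicate 2. Both replicates placed it above their median strong peak, with replicate 1 at over 2 times the value of replicate 2. It was in the conservative list. Its best stretch for the core motif had 3 mismatches and lay 23 bp from the summit, so it did not count as a match. That stretch is shown beside the 98 bases between the outer starts of Sgce and Peg10, in which capitals mark the 13 CpG dinucleotides.

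Peg10-Sgce summit, best stretch in capitals, chr6:4747190-4747219, minus strand: ttggcccgCCGCTAGGGGCAGCatgggctc
Between the Sgce and Peg10 starts, CpG in capitals, chr6:4747208-4747305, plus strand: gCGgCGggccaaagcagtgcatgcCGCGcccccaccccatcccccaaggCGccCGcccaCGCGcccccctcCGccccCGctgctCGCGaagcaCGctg

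The second peak, in intron 1 of Peg10 and 2117 bp after its start, was weaker, with a signal of 21.8 and relative signals of 0.426 and 0.210. Replicate 2 did not count it among its strongest peaks, where it ranked 58652. A further peak, beyond the 3' end of Peg10 with its summit at 4799569, was in the conservative list only, with a signal of 31.1 and relative signals of 0.376 and 0.516, and its motif match had 1 mismatch. The surroundings were sparse. The next optimal peaks lay 189.3 kb from the promoter pair on the Sgce side and 153.5 kb from it on the Peg10 side.

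Of 12 other genes of this imprinted cluster, taken as neighbours, 4 (33.3%) had an optimal peak within 1 kb of a start, a share close to the 35.2% of all protein-coding genes. These were Bet1, a SNARE protein of the secretory pathway, Ppp1r9a, which encodes the neuronal scaffold neurabin, Pon3, a paraoxonase, and Asb4, an ankyrin repeat protein. Ppp1r9a had a relative signal of 7.75 ± 1.525 and Asb4 of 3.62 ± 0.553 (SD, n = 2 each), both above the 1.73 ± 0.899 of the Peg10-Sgce promoter, with no overlap between the replicates. Calcr, Tfpi2, Gngt1, Gng11, Casd1, Pon1, Pon2 and Pdk4 had none. The median number of optimal peaks in the windows of these 12 genes was 1, with a range of 0 to 8, against a median of 5 over all protein-coding genes.

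The Inpp5f window, on chromosome 7 from 128561328 to 128746425, held 7 optimal peaks, or 37.8 per Mb, with 8 and 5 among the strongest peaks of replicates 1 and 2. Its strongest peak lay beyond the 3' end of Inpp5f, in intron 11 of Mcmbp-201, whose gene encodes a binding partner of the replicative MCM helicase and runs on the other strand. The signal was 479.6, rank 612 of 50909, and the relative signals were 8.55 in replicate 1 and 5.93 in replicate 2, with ranks of 613 and 729. Both replicates therefore placed it among their 1000 strongest peaks. The next, 15.5 kb before it in intron 15 of Inpp5f-201, which has 20 exons, had a signal of 346.6, rank 3342, and relative signals of 5.84 and 5.02. The replicates of these peaks did not overlap. Both motifs lay on the minus strand, within 2 bp of the summit, with 2 mismatches in the Mcmbp intron and 1 in the Inpp5f intron. Both are printed because they carry the highest signals of the 4 loci, with the match in capitals.

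Inpp5f intron 15, chr7:128690324-128690424, minus strand: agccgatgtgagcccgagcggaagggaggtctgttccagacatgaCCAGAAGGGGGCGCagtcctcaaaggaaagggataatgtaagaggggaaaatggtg
Mcmbp intron 11, chr7:128705841-128705941, minus strand: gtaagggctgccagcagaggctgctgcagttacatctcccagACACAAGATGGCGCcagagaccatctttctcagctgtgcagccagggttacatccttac

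The intronic peak lay 1885 bp downstream of an internal Inpp5f start at 128688489, shared by transcripts Inpp5f-203 and Inpp5f-209. At that internal start the conservative list held a peak that the optimal list did not, with its summit 32 bp upstream of the start. Its signal in the conservative list was 21.9, rank 43586 of 49129, and its relative signals were 0.330 and 0.245 in replicates 1 and 2. Both were low, and its ranks of 51056 and 52982 fell just beyond the 50909 strongest peaks of each replicate. Its 101 bases held 10 CpG dinucleotides, against a median of 2 around all optimal summits, and its best stretch for the motif had 4 mismatches. A second conservative peak lay further inside the gene, at 128672526, with 0.410 and 0.213. Another, beyond Inpp5f at 128745177 inside Sec23ip, had 0.248 in replicate 2 and no candidate within 100 bp in replicate 1. The outer start of Inpp5f held neither an optimal nor a conservative peak. A pooled candidate 40 bp downstream of it had a signal of 11.0 and rank 77589, with ranks of 107710 and 162336 in the replicates.

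The other Inpp5f peaks lay outside the gene. Upstream, 47.8 kb before the start, a peak with a match on the plus strand had relative signals of 3.98 and 2.65, and 21.5 kb before the start a weaker one had 0.850 and 0.270. The 101 bases of the weaker peak consisted to 100% of soft-masked repeat letters. In intron 2 of Mcmbp-201 a peak had 1.58 and 2.52. At the Mcmbp start lay 2 peaks 209 bp apart. The first had 0.347 and 0.258. The second had a signal of 5.58, rank 50852 of 50909, and a relative signal of 0.146 in replicate 1, with no peak within 100 bp in replicate 2. It was outside the conservative list. Without it the Inpp5f window held 6 peaks and the 4 loci 17. The farthest upstream match lay on the plus strand, and those of the weaker upstream peak, Inpp5f intron 15 and Mcmbp introns 11 and 2 on the minus strand, so the farthest upstream site faces the other 4.

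**Figure D3:**
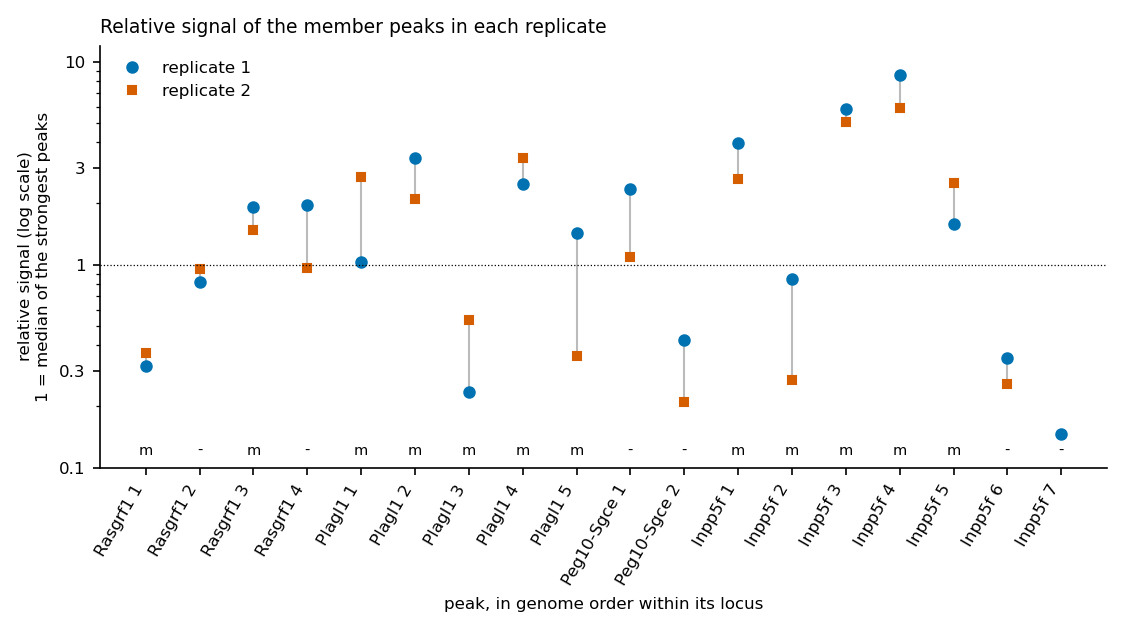
Relative signal (y axis, log scale; the dotted line at 1 is the median of a replicate's 50909 strongest peaks) of the 18 peaks, numbered in genome order within each locus, with replicate 1 as blue circles and replicate 2 as orange squares. The letter m marks a core motif match and a dash none; 1 peak, the last of Inpp5f, has no value in replicate 2, and the pair at Inpp5f 3 and 4 stands highest in both replicates.

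Set beside the whole list, the 18 peaks were close to the background in each support measure. A conservative peak lay within 100 bp of 16 of 18 (88.9%), against 86.4% of all 50888 optimal peaks on chromosomes. Both replicates counted 13 of 18 (72.2%) among their strongest peaks, against 76.7% of all optimal peaks. A core motif match was present at 12 of 18 (66.7%), against 70.8%. The unmatched peaks were both peaks of Peg10-Sgce, both at the Mcmbp start, the Ctsh start and the Rasgrf1 intron 6 peak. Of the 18, 10 ranked in the upper part of the list, above its median, and the median signal of the 18 was 103.9, against 68.0 for all optimal peaks. By position, 8 peaks were intronic, 5 intergenic, 4 within 1 kb of a start and 1 in an exon. Relative signal was higher in replicate 1 at 11 and in replicate 2 at 6 of the 17 peaks found in both lists. For position and for the order of the replicates no share over all optimal peaks is given, so neither is read as particular to these loci. The peaks of a locus share their neighbourhood, so these counts are descriptions.

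Of the 5 genes, 2 had an optimal peak within 1 kb of an annotated start, namely Peg10 and Sgce through the same peak, against 35.2% of all 21938 protein-coding genes. In the conservative list there were 3, Inpp5f being added through its internal start. A candidate of the pooled list lay within 1 kb of a start in 5 of 5, against 71.0% of protein-coding genes. All 5 had at least 1 optimal peak in their window, against 85.2% of protein-coding genes. Window counts were 7 for Inpp5f, 5 for Plagl1, 4 for Rasgrf1 and 2 each for Peg10 and Sgce, against a median of 5 (quartiles 2 and 9). Per Mb of window, Inpp5f with 37.8 was next to the median of 37.4 over all protein-coding genes, Plagl1 with 29.2, Rasgrf1 with 18.4 and Peg10 with 17.7 were lower, and Sgce with 11.6 was under the lower quartile.

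**Figure D4:**
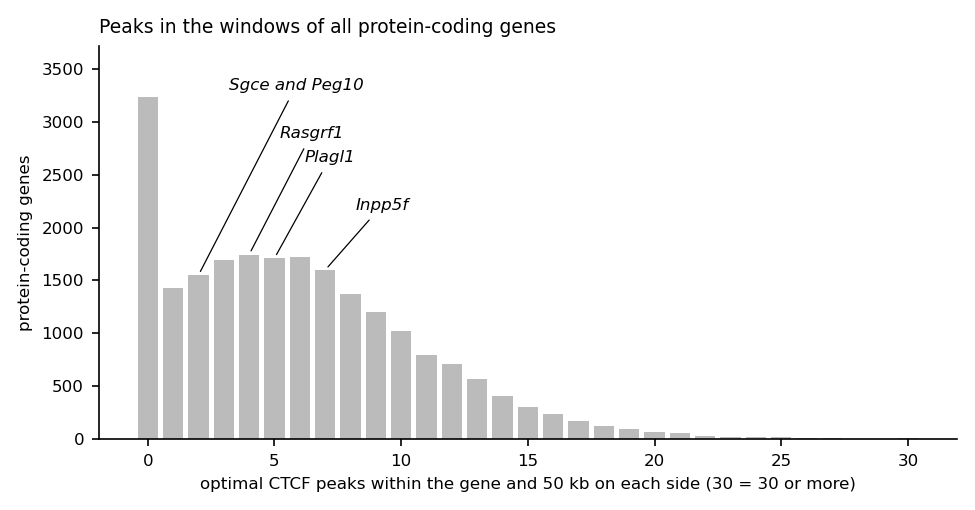
Number of protein-coding genes (y axis) by the number of optimal CTCF peaks within the gene and 50 kb on each side (x axis). The 5 genes, marked by lines, have 2 to 7 peaks, within the quartiles of 2 and 9 for all genes.

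Among 34 other imprinted genes, chosen from common knowledge of the family, 16 (47.1%) had an optimal peak within 1 kb of a start. Their median window count was 5. The share of 35.2% covers protein-coding genes only and is not a like-for-like background. The list also holds the noncoding genes H19, Airn, Kcnq1ot1, Meg3 and Peg13, all with such a peak except H19. Peg3 and Usp29 were both counted through the same peak. The strongest was at H13, the host gene of the imprinted Mcts2, with a relative signal of 7.72 ± 1.65 (SD, n = 2). Meg3, a noncoding RNA gene, had 4.14 ± 1.23 (SD, n = 2). Mest, which like Peg10 is paternally expressed from a promoter methylated on the maternal copy, had 1.56 ± 0.754 (SD, n = 2), and its replicates overlapped those of the Peg10-Sgce promoter. Snrpn had no optimal peak in its window. There were 5 protein-coding neighbours with a start inside a window of the 4 loci. Ctsh and Mcmbp had a promoter peak in the optimal list, and Zc2hc1b, Casd1 and Sec23ip did not. The conservative list held a peak inside Sec23ip that the optimal list did not, 99 bp from the annotated start of the gene Gm44672.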

How the data were processed

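Per the files' own listings, the authors called narrowPeak lists on mm10 with a control, for each replicate and for both pooled, and derived the optimal and conservative IDR lists from them. No source used here names the caller or its settings. The deposited signal is the caller's own value per peak. The deposited score of the IDR lists reached its highest value, 1000, at 14 of the 18 peaks and was not used otherwise. The deposited summit is an offset from the peak start. Depth is unknown, so no counting interval is given.

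The 5 genes and the gene lists were chosen with earlier results of these data known. Summits were placed on GENCODE vM21 and sequences were read from the RefSeq assembly GRCm38.p6, the same build, with Python 3.11.15, pandas 2.3.3, numpy 2.4.6 and pyfaidx 0.9.0.4. Promoter means within 1 kb of any annotated transcript start. Lists were matched at 100 bp. Motif scanning and summit matching were tested on simulated sequences. Named in full were the strongest peak of each locus, peaks at member starts, the strongest peak inside each gene and candidates 20 to 40 kb upstream of Rasgrf1. No test was run, since the 2 libraries form 1 group. The alternatives were other lists, flanks, distances, motif settings, scalings and each replicate alone. The limit on the pooled rank was chosen after the data were seen.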

Additional observations from a re-analysis of the deposited data

How the results depend on the processing

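Leaving out a replicate kept the counts of peaks, promoter genes and motif matches within 1.5 times of those reported. With each replicate alone, the relative signal of the peak that is strongest in the optimal list was 5.93 to 8.55 at Inpp5f, 2.50 to 3.34 at Plagl1, 1.09 to 2.37 at Peg10-Sgce and 1.48 to 1.93 at Rasgrf1. In replicate 1 another peak was higher at Plagl1 (3.36) and at Rasgrf1 (1.98, at the Ctsh start). In the conservative list, which is smaller as a whole, Rasgrf1 had 5 peaks, Plagl1 4, Peg10-Sgce 3, Inpp5f 9 and the 4 loci 21. The flank set the counts: with 20 kb, Plagl1 had 3 peaks, Inpp5f 2 and the 4 loci 10, and with 100 kb Rasgrf1 had 10, Plagl1 9 and the 4 loci 31. With the lower-ranked part of the list left out at its median, Rasgrf1 had 2, Plagl1 3, Peg10-Sgce 1, Inpp5f 4 and the 4 loci 10. With starts widened to 5 kb, 4 of the 5 genes had a promoter peak. Divided by the mean signal, the strongest peak had 0.958 at Rasgrf1, 1.68 at Plagl1, 0.952 at Peg10-Sgce and 4.05 at Inpp5f, which turned the order of Peg10-Sgce and Rasgrf1. Divided by the median of 2 times as many peaks, it had 5.73 at Rasgrf1, 10.1 at Plagl1, 5.65 at Peg10-Sgce and 24.2 at Inpp5f, with the same turn. The limit on the pooled rank, added after the data were seen, left 17 peaks. These shifts follow from the construction of the wider or narrower window and of the divisor. No paired analysis was possible because the libraries form 1 group. Depth is unknown, so the missing optimal peak upstream of Rasgrf1 says only that none passed the IDR threshold here.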
